A study of Mus musculus with 6 samples.

Results

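Germline-derived pluripotent stem cell (gPSC) lines were compared with the germline stem cells (GSC) they come from, at single genome positions whose methylation had been called different from a common reference. A position was taken when it was listed for the GSC library and also for both gPSC lines, so the members were chosen by the deposited differences themselves. This gave 59547 positions of the 448072 listed in any of the 5 libraries with tables. The move of a position is the difference of a gPSC line minus the difference of GSC, in percentage points of methylation. The reference cancels in that subtraction, so a move of -40 points means that the gPSC line was 40 points less methylated than GSC.

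The study used reduced representation bisulfite sequencing, which reads CpG-rich fragments after unmethylated cytosines are converted, on 6 mouse lines grown in vitro. All 6 carry the label OG2, a transgenic background in which a fluorescent reporter is driven by Pou5f1 regulatory sequence. They comprise 1 GSC line, 2 induced pluripotent (iPSC) lines made from GSC, 2 independent gPSC lines and 1 embryonic stem cell (ESC) line, each with 1 library. The tables do not name their reference, which is taken here to be the ESC line because it is the one line without tables. The title frames the question as whether reprogramming by transcription factors leaves a memory of the starting cell, and gPSC lines are pluripotent cells obtained from the same germline start. No treatment, time or passage was given in the labels used here.

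In mammals, methylation of cytosines in CpG pairs is copied at each cell division by Dnmt1 with Uhrf1, is laid down anew by Dnmt3a and its relatives, and is removed through oxidation by the Tet enzymes. Male germline stem cells hold a highly methylated genome with sperm-type imprints, while promoters of genes they use are kept unmethylated. Pluripotent stem cells switch on genes such as Pou5f1, whose regulatory regions are methylated in most other cells, and methylate the promoters of many germline genes.

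Promoters that stayed different from the reference in GSC and in both gPSC lines are shown first, since a dense group of CpGs carries each result. The sequences are the 250 bases upstream of the annotated start (RefSeq, GRCm38.p6), written 5′ to 3′ along the gene's strand. Capitals mark the CpGs where the differences of both gPSC lines lay within 10 points of that of GSC.
Arl8a: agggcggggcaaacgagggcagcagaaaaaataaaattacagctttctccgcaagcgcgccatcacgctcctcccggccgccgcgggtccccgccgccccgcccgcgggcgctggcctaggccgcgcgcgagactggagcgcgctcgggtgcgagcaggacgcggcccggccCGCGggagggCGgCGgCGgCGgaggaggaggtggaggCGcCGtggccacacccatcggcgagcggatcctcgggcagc
Mta1: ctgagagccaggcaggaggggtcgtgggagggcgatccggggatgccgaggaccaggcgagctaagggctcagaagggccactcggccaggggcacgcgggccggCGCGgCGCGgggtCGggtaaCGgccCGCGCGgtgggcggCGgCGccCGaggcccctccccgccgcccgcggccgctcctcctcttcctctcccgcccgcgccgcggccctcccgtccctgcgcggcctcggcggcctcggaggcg
Ptprf: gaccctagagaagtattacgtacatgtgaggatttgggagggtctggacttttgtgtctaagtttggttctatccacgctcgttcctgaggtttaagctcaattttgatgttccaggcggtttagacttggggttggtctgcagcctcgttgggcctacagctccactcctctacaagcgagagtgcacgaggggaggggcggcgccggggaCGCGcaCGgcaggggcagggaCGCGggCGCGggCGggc
Neurog1: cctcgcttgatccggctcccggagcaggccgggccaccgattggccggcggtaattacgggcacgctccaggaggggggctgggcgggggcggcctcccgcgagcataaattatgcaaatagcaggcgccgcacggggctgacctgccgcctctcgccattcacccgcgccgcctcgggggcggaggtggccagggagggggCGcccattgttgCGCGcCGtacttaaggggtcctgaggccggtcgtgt
The Arl8a window (chr1:135146584-135146833, plus strand) holds 39 CpGs, of which 8 are marked. One more listed position in that window is not at a CpG of the reference sequence. The Mta1 window (chr12:113098028-113098277, plus strand) holds 39 CpGs with 12 marked. The Ptprf window (chr4:118291398-118291647, minus strand) holds 18 with 8 marked, and all 8 lie in the stretch next to the start. The Neurog1 window (chr13:56252181-56252430, minus strand) holds 29 with 4 marked. The marked CpGs of Arl8a, Mta1 and Ptprf were less methylated than the reference in all 3 libraries, and those of Neurog1 were more methylated. No gene that moved had 3 of its moved positions within such a window. Over all RefSeq promoter windows, 1834 of 1838 member positions (99.8%) lay at a CpG.

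GSC was listed at 255689 positions, gPSC 1 at 164583 and gPSC 2 at 159640. The smallest absolute difference in each table was 25 points, and every q-value was at most 0.01. A position where a gPSC line came back to within 25 points of the reference is therefore absent, and the members describe what was still different. Members made up 26.4% of the positions where GSC was higher than the reference (55949 of 211853) and 8.21% of those where it was lower (3598 of 43836). Read counts are not given in the tables, which leaves the depth of every value unknown, and the single GSC library has no replicate. The positions were chosen on these same values, so no test of gPSC against GSC was run and all values below are descriptions. The spread between the 2 gPSC lines is given as the replicate error. For genes it is taken over positions chosen because both lines agreed, and it holds no error of GSC. It therefore understates the error of a move.

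At the positions still listed above the reference, the gPSC lines were somewhat closer to it than GSC. Members higher than the reference had medians of 71.9 points in GSC, 59.6 in gPSC 1 and 57.9 in gPSC 2. Members lower than the reference had medians of -48.1, -46.4 and -50.1 points, so there gPSC 2 was farther from it than GSC. The median difference from the reference over the members was 69.8 points in GSC, 57.6 in gPSC 1 and 56.0 in gPSC 2. The median move was -6.53 points in gPSC 1 and -7.74 in gPSC 2. The median absolute difference between the gPSC lines at the same positions was 6.04 points, so the typical move was close to the distance between the lines. Both lines were lower than GSC at 65.4% of members and higher at 11.8%, and 693 positions had equal values in the 3 libraries (to within 1e-06 points). All 3 libraries were higher than the reference at 55897 members (93.9%) and lower at 3539 (5.94%).

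A position was called moved when both gPSC lines differed from GSC by 25 points or more in the same direction, and kept when both were within 10 points. Of the 59547 members, 4582 (7.69%) moved lower and 362 (0.608%) moved higher. Another 21621 (36.3%) were kept at a level above the reference and 2062 (3.46%) at a level below it. The remaining 30920 lay between these limits. The smallest move counted was 25 points and the nearest one not counted was 24.99, while kept positions reached 9.998 points and the nearest one outside was at 10. Moves of 25 points or more in opposite directions in the gPSC lines occurred at 10 positions.

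**Figure D1:**
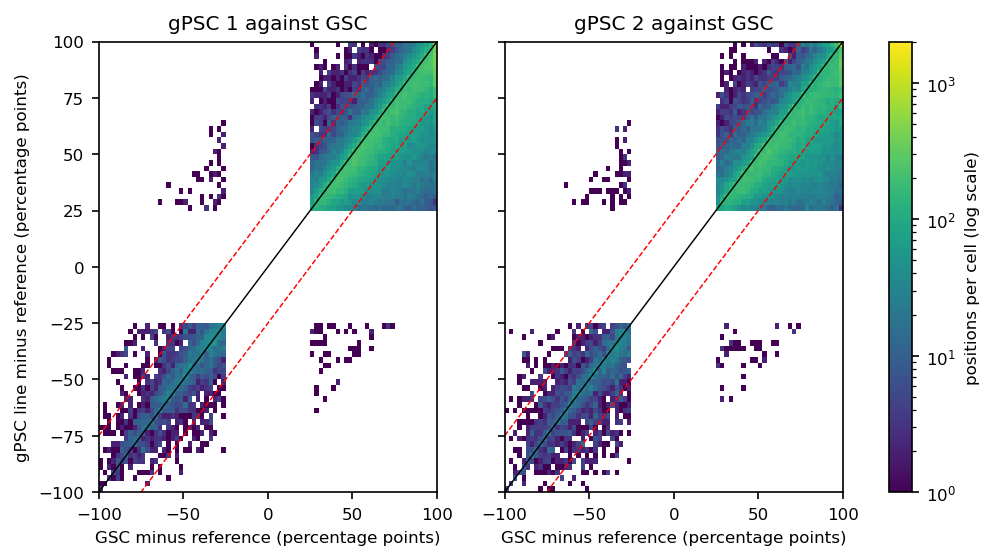
Difference from the reference in GSC (x axis) against that in gPSC 1 (left) and gPSC 2 (right), in percentage points, for the 59547 member positions; colour is the number of positions per cell on a log scale. The solid line marks no move and the dashed lines moves of 25 points. The empty bands between -25 and 25 come from the tables, which list no smaller difference, and most positions lie on or under the solid line at the upper right.

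The positions that moved lower started from near full methylation. Their median difference was 86.9 points in GSC, 45.3 in gPSC 1 and 43.2 in gPSC 2. Positions that moved higher had medians of 35.5, 73.3 and 73.5 points. At the positions kept above the reference the medians were 61.7, 59.7 and 59.4 points, and at those kept below it they were -47.1, -46.2 and -47.3. How far a position could fall depended on where it began, because every member had to stay 25 points from the reference. Where all 3 libraries were higher than the reference, 14.7% of the 25543 positions at 75 to 100 points in GSC moved lower. That share was 3.78% of the 19429 positions at 50 to 75 points and 0 of the 10925 at 25 to 50 points, where the listing rule leaves no room for such a move.

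The iPSC lines had no part in the choice of positions. Both were listed at 1680 of the positions that moved lower (36.7%), at 63.5% of those that moved higher, 57.6% of those kept above and 56.8% of those kept below the reference. At the 1680 positions the medians were 89.3 points in GSC, 50.4 and 47.9 in the gPSC lines, and 46.4 and 44.9 in iPSC 1 and iPSC 2. At the positions that moved higher and were listed in both iPSC lines, the medians were 37.0 in GSC, 78.3 and 77.2 in the gPSC lines, and 68.8 and 70.6 in the iPSC lines. The iPSC and gPSC differences share both the GSC library and the reference, so they are set side by side without a test. By the same limits, 5086 of the 51381 positions listed in GSC and both iPSC lines (9.9%) moved lower in the iPSC lines and 253 (0.492%) moved higher.

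Among lower positions many had a mirror image next to them. At 68.1% of the members lower in all 3 libraries, at least 1 of these libraries also listed an opposite difference 1 bp away, against 4.12% of the members higher in all 3. Of the 1800 pairs of members 1 bp apart, 1175 (65.3%) had opposite signs in GSC, and in 859 of these the values of each of the 3 libraries summed to within 5 points of 0. The 2 cytosines of a CpG on opposite strands lie 1 bp apart, and their methylation is usually alike. Of the 2062 positions kept below the reference 1184 (57.4%) had such a neighbour. The number is given beside the genes with lower positions described below, and its part in the results was not tested.

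Promoter members had smaller moves in the median than gene body members, and more of them were below the reference. They also had a smaller median difference in GSC, 36.6 points against 71.6 in gene bodies. Under the listing rule a lower start leaves less room to fall, and its part in this contrast was not tested. Genes without a known strand may have promoters counted with the other places. The promoter was taken as 2000 bp upstream to 500 bp downstream of the annotated start. In promoters (5515 members) 5.06% moved lower, 1212 positions were kept above and 23.0% kept below the reference, with a median move of -2.35 points, and 45.6% had an opposite neighbour 1 bp away. In the rest of the gene body (29849 members) 9.03% moved lower and 34.9% were kept above the reference, with a median move of -8.39 points. Outside genes (24183 members) these shares were 6.65% and 41.3%. On the X chromosome (2931 members) 5.02% moved lower, 1.09% moved higher and 45.0% were kept above the reference, beside 7.85%, 0.585% and 35.8% on the autosomes. The Y chromosome held 180 members, of which 54.4% were kept above the reference and 3.33% moved lower.

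**Figure D2:**
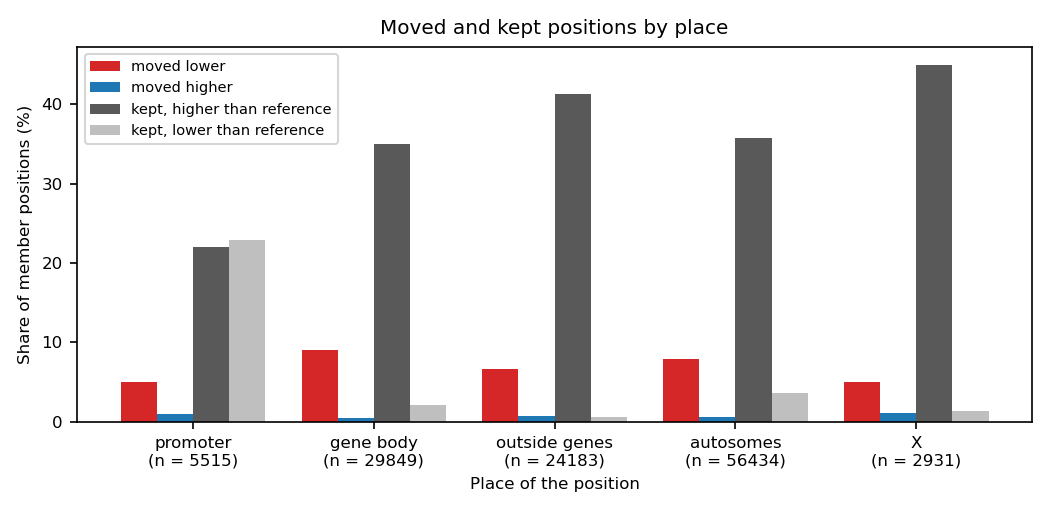
Share of member positions (y axis, percent) that moved lower, moved higher or were kept, by place (x axis, with the number of positions). The bar for positions kept below the reference is tallest in promoters (23.0%), and the bar for positions kept above it is tallest on the X chromosome (45.0%).

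Positions of a kind had another of that kind nearby more often than members of other kinds did. Another position that moved lower was found within 100 bp of 17.3% of those that moved lower and of 2.96% of the other members. For positions that moved higher the shares were 19.6% and 0.326%, and for those kept below the reference 34.4% and 1.69%. The contrast was weaker for those kept above the reference, at 34.8% and 17.5%. Fragments in this assay are short, so neighbours often share reads.

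Genes were called when at least 3 of their members were of a kind and these were more than 50% of the gene's members. Of the 4691 genes with 3 or more members, 54 (1.15%) moved lower, 5 (0.107%) moved higher, 710 (15.1%) were kept above and 55 (1.17%) below the reference. The genes that moved lower had a median difference of 84.0 points in GSC and 40.1 over the gPSC lines, and 6 of the 54 had most of their positions in the promoter. For the genes kept below the reference, 44 of 55 had most of their positions in the promoter, and 28 had an opposite neighbour at most of their positions.

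Hcn2, which encodes a pacemaker cation channel, had the most positions that moved lower. They were 14 of its 22 members, on chromosome 10 from 79735283 to 79735940 near the gene's 3′ end. None lay in a promoter by the limits above, but the deposited annotation marked 6 as exon and promoter and 1 as intron and promoter. The mean difference of the 14 was 77.4 points in GSC, 37.2 in gPSC 1 and 37.1 in gPSC 2, a mean move of -40.2 ± 0.108 (SD, n = 2 lines). At these positions GSC lay between 63.5 and 92.7 and the gPSC lines between 25.2 and 47.1. Each position was chosen for a move of 25 points or more, so this separation is in part built in. Upstream in the same gene 5 positions were kept, for example the one at 79724617 with 47.1 points in GSC and in both gPSC lines. At the 5 moved positions listed in iPSC 1 the mean was 34.4, and at the 3 listed in iPSC 2 it was 30.4. Of the 14 positions, 7 had an opposite neighbour 1 bp away, and the gene was not called without them.

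Lhx1, a LIM homeobox factor used in embryonic patterning and also expressed by self-renewing spermatogonial stem cells, moved lower at 6 of 7 members (chromosome 11, 84520065 to 84521815). The mean was 83.9 points in GSC, 38.4 in gPSC 1 and 43.9 in gPSC 2, a mean move of -42.8 ± 3.93 (SD, n = 2 lines). All 6 positions were in the gene body, and the member upstream of the start at 84526182 was kept at -64.7, -69.5 and -69.5 points. So the body positions moved while the 1 upstream member did not. Of the 6 positions 3 had an opposite neighbour 1 bp away and 4 within 50 bp, and the call was lost when those 4 were left out.

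Pou5f1, the master regulator of pluripotency, moved lower at 4 of 7 members (chromosome 17, 35506279 to 35507907, marked as both exon and promoter in the deposited annotation). The mean of the 4 was 95.6 points in GSC, 52.1 in gPSC 1 and 47.7 in gPSC 2, a mean move of -45.7 ± 3.14 (SD, n = 2 lines). At 35506285 GSC stood at 100 points, gPSC 1 at 50 and gPSC 2 at 42.3. A difference of 100 points is possible only if the reference was unmethylated there, so these values are also levels in percent. The other 3 members had moves of -18.8 to -40 points in gPSC 1 and -20.0 to -33.8 in gPSC 2. At the moved positions iPSC 1 had a mean of 50.8 (3 positions) and iPSC 2 of 35.3 (3 positions). The OG2 transgene carries Pou5f1 sequence, and its part in these values was not tested. The first 2 of the moved positions also lie within 2000 bp upstream of the predicted gene Gm32362, and Pou5f1 is not called when positions in more than 1 gene are left out, nor with q at most 0.0001 in all 3 libraries.

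**Figure D3:**
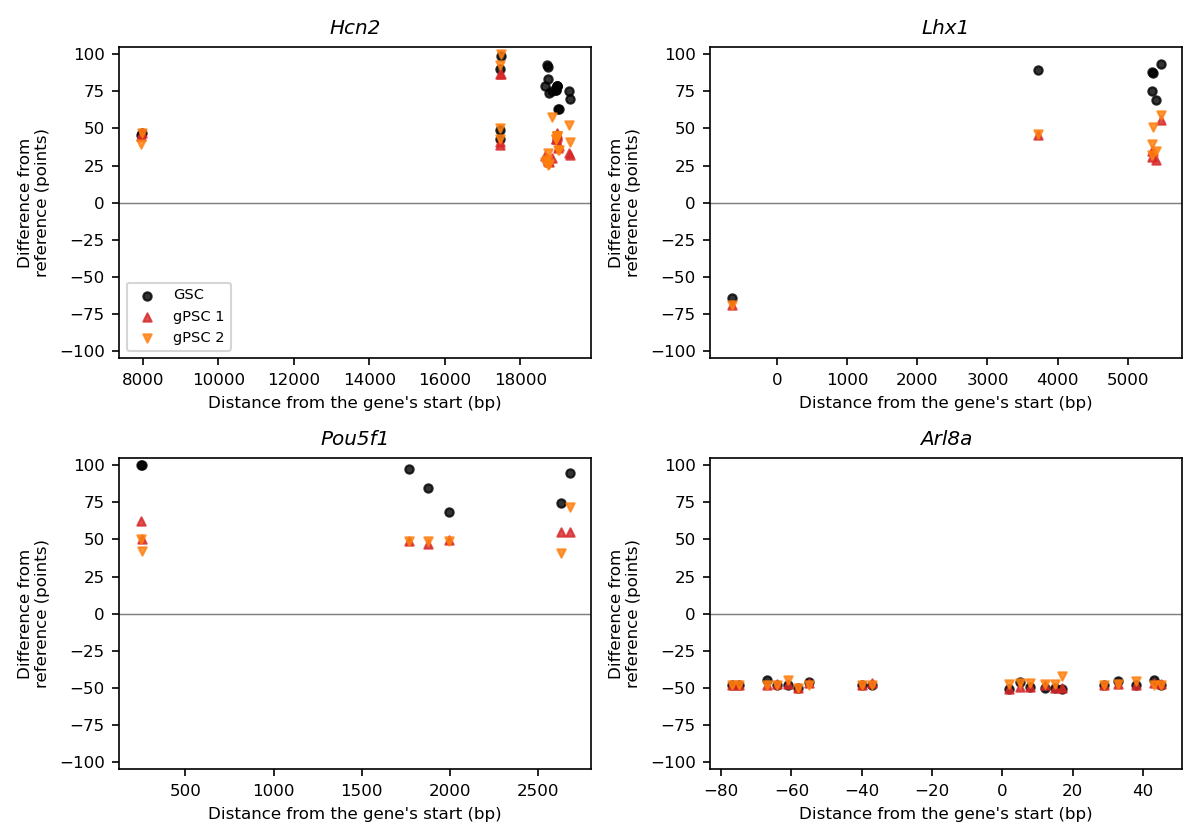
Difference from the reference (y axis, percentage points) at every member of Hcn2, Lhx1, Pou5f1 and Arl8a, by distance from the annotated start along the gene (x axis, bp), in GSC (circles), gPSC 1 (upward triangles) and gPSC 2 (downward triangles). In Hcn2 the distal cluster and in Lhx1 the body positions lie lower in the gPSC lines than in GSC, while the 20 Arl8a positions overlie one another near -48 points.

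The other named genes that moved lower had their positions in gene bodies. Zdhhc18, a protein palmitoyltransferase, moved at all 6 of its members, from a mean of 82.8 points in GSC to 32.5 and 31.1 in the gPSC lines. Sult2a3, a sulfotransferase, moved at all 6, from 88.9 to 38.9 and 40.7. Fam110a moved at 7 of 10, from 82.3 to 36.0 and 37.9, and was not called with q at most 0.0001. For these 3 genes the means of the gPSC lines over the chosen positions were within 2 points of each other. None of the positions had an opposite neighbour. Banp, a nuclear protein that binds unmethylated CGCG sequence, stood at 100 points in GSC at all 6 of its moved positions and at 51.8 and 67.0 in the gPSC lines. The reference was thus unmethylated there. The Banp lines differed most among these genes, with a mean move of -40.6 ± 10.8 (SD, n = 2 lines). Bicral, a subunit of a SWI/SNF complex, went from 85.8 to 42.6 and 35.5 at 5 of 8 members, and the chromatin reader Zmynd8 from 87.0 to 45.9 and 40.5 at 5 of 7. Apc2, a relative of the Wnt pathway inhibitor Apc, went from 86.6 to 41.9 and 46.5 at 3 of 5. Foxj1, the factor for motile cilia, went from 79.8 to 37.1 and 39.2 at 3 of 4, with an opposite neighbour at 2 of the 3. Zmynd8, Apc2 and Foxj1 were not called with q at most 0.0001 either.

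A cluster outside genes moved by a similar amount, and was chosen after its values were seen. Its 6 positions on chromosome 1 (114557575 to 114557865), 302323 bp from the nearest gene of the table, had means of 87.1 points in GSC, 36.5 in gPSC 1 and 42.1 in gPSC 2.

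Only 5 genes moved higher, on 4 separate sets of positions, and none of them was called with q at most 0.0001. Trim35, of a family of ubiquitin ligases, moved at all 10 members near one end of the gene (chromosome 14, 66297149 to 66297238), from -79.3 points in GSC to -33.5 in gPSC 1 and -50.8 in gPSC 2. All 10 positions had an opposite neighbour 1 bp away. Wdfy4, known for antigen cross-presentation by dendritic cells, moved at all 5 members, which lie within 24 bp (chromosome 14, 33190049 to 33190072). GSC stood at 48.5 points at each, gPSC 1 at a mean of 96.1 and gPSC 2 at 100, and iPSC 1 was also at 100. The reference was thus unmethylated there and gPSC 2 was fully methylated. None of the 5 Wdfy4 positions had an opposite neighbour within 50 bp.

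Gabre and Akna crossed the reference. At 3 promoter positions of Gabre, a GABA receptor subunit on the X chromosome, the mean was -37.4 points in GSC, 34.5 in gPSC 1 and 46.9 in gPSC 2. At 3 positions shared by Akna and its antisense gene Aknaos it was -38.9, 38.8 and 35.7 points, and iPSC 1 and iPSC 2 stood at 40.1 and 32.9. All 6 positions had an opposite neighbour within 50 bp in at least 1 of the 3 libraries.

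**Figure D4:**
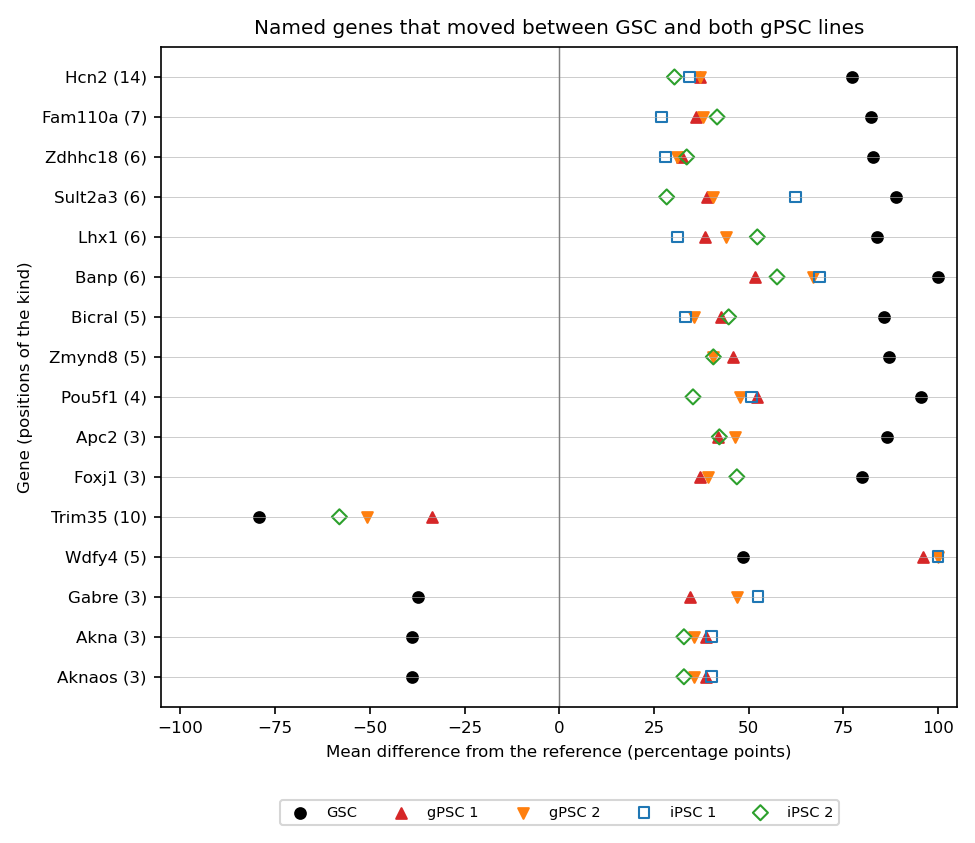
Mean difference from the reference (x axis, percentage points) over the moved positions of each named gene (y axis, number of positions in parentheses) in GSC and the gPSC lines; open symbols are the iPSC lines, over the subset of those positions that they list. The 11 genes that moved lower have GSC between 77.4 and 100 points and both gPSC lines to the left of it. The 5 genes that moved higher have both gPSC lines to the right. The positions were chosen by these moves, so the sides are set by the choice.

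Crossing the reference was rare. GSC was lower and both gPSC lines higher at 55 positions, with medians of -32.1, 38.6 and 40.6 points. The reverse held at 50 positions, with medians of 40.3, -33.7 and -36.2. An opposite neighbour 1 bp away was present at 5 of the 55 and at 24 of the 50. The first set included promoter positions of genes used by germ cells. At Asz1, which acts in the piRNA pathway that silences transposons, the position 18108942 on chromosome 6 was at -34.5 points in GSC, 60.1 in gPSC 1 and 57.2 in gPSC 2. The position 18108968 was at -32.6, 38.9 and 33.1 points. At Dazl, an RNA-binding protein needed for germ cells, the position 50293572 on chromosome 17 was at -28.1 points in GSC and at 42.1 and 56.3 in the gPSC lines, with 41.2 and 31.1 in the iPSC lines, and it had an opposite neighbour within 50 bp. At these 3 positions GSC was less methylated than the reference and every other listed line more. The other 2 members of the Dazl promoter did not share this. The position 50293416 stood at 91.8 points in GSC, 87.0 in gPSC 1 and 92.9 in gPSC 2, and 50293427 at 91.8, 89.9 and 100. Neither gene had 3 of the kind, so neither was called.

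The second set included Parva and Ajuba, both adaptors of cell adhesion sites. At 3 positions of Parva the mean was 68.9 points in GSC, -29.7 in gPSC 1 and -31.1 in gPSC 2. The move of gPSC 2 was -100 points at each, which is possible only with full methylation in GSC and none in gPSC 2. At 3 positions of Ajuba the means were 32.5, -52.1 and -35.1 points, and all 3 had an opposite neighbour within 50 bp. Senp3, a SUMO protease, moved lower from a level already below the reference, at -48.6 points in GSC and -77.6 and -79.2 in the gPSC lines over 3 positions, 2 of them with an opposite neighbour 1 bp away. Parva, Ajuba, Senp3, Asz1 and Dazl were chosen after their values were seen.

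By the promoter limits above, none of the kept positions of the 8 genes with the most of them above the reference lay in a promoter. For Wwox, Chst9 and Atxn1 no strand was known, so promoters of their own may have been missed. In Slc39a11 the deposited annotation marked some of the kept positions as promoter. Prdm16, a zinc finger regulator of brown fat and hematopoietic stem cells, had the most, 26 of 50 members, at means of 58.9 points in GSC, 57.2 in gPSC 1 and 56.8 in gPSC 2. S100a7l2, of the calcium-binding S100 family, had 25 of 28 at 75.3, 73.8 and 73.6, and both iPSC lines were listed at all 25 with 72.6 and 72.1. Wwox, a gene at a fragile site, had 24 of 40 at 66.2, 64.0 and 64.5. The S100a7l2 positions were compact (chromosome 3, 91097982 to 91099336), whereas those of Prdm16 and Wwox were spread over most of the gene. Chst9 (22 of 34), Atxn1 (20 of 23), Ksr2 (18 of 31), Il1rapl1 (17 of 29) and Slc39a11 (17 of 30) followed. Across these 8 genes the mean moves of the lines ran from -0.906 to -3.79 points, and 1 position, in Slc39a11, had an opposite neighbour 1 bp away.

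Genes kept below the reference had compact promoter clusters. Arl8a, a small GTPase of lysosomes, was kept at all 20 members (chromosome 1, 135146757 to 135146879), at -48.2 points in GSC, -48.3 in gPSC 1 and -47.3 in gPSC 2. Both iPSC lines were listed at all 20, with -48.1 and -48.5. No Arl8a position had an opposite neighbour 1 bp away and 8 had one within 50 bp. Mta1, a subunit of the NuRD chromatin complex, was kept at 13 of 16 members, at -58.3, -56.8 and -54.1 points, with no opposite neighbour within 50 bp. Rpl26, a ribosomal protein, was kept at all 11, at -53.4, -52.6 and -53.7, also with none. Tent4b, a poly(A) polymerase, was kept at 15 of 18, at -56.2, -55.8 and -56.0, with no opposite neighbour 1 bp away and 9 within 50 bp.

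Ptprf, a receptor tyrosine phosphatase, was kept at 19 of 34 members, at -74.7 points in GSC and -82.1 and -81.9 in the gPSC lines, with no opposite neighbour within 50 bp. Of its other members, 8 were kept above the reference and 3 moved lower. All 19 were listed in iPSC 1 with -81.6 and none in iPSC 2. Ptprf was not called with either gPSC line alone, nor with q at most 0.0001 in all 3 libraries. Mirror neighbours were frequent in the next 3 genes. Ptbp2 had an opposite neighbour 1 bp away at 13 of 14 kept positions, Ano6 at 12 of 12 and Ppp2r2d at 9 of 10.

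**Figure D5:**
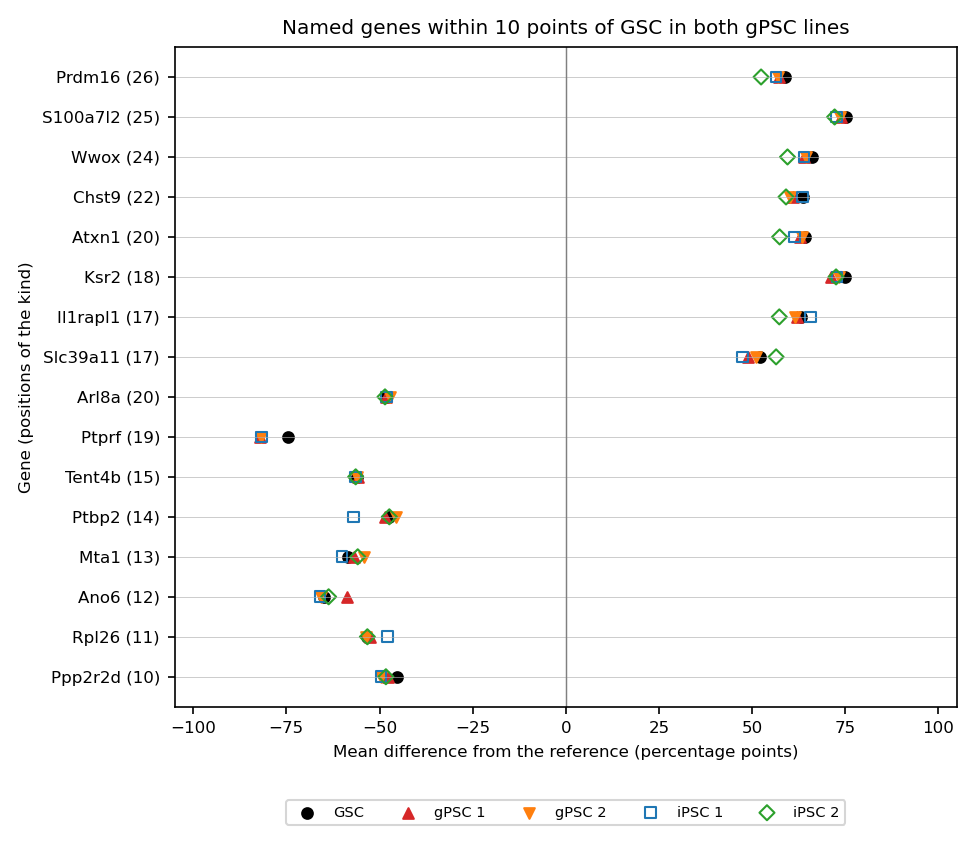
Mean difference from the reference (x axis, percentage points) over the kept positions of the named genes (y axis, number of positions in parentheses); open symbols are the iPSC lines over the positions they list. The 3 libraries used to choose the positions overlie one another by construction; Arl8a and S100a7l2 have both iPSC lines at the same place too, and Ptprf has no iPSC 2 value.

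The genes with the most members of any kind were mixed. Camta1, a calmodulin-binding transcription activator, had 53, of which 6 moved lower and 17 were kept, with medians of 73.3 points in GSC, 57.3 in gPSC 1 and 53.3 in gPSC 2. Filip1 had 51, with 1 moved lower and 20 kept, and medians of 78.9, 70.0 and 62.6. Tanc2 had 47 with 13 kept above and 13 below the reference, and 40 of the 47 had an opposite neighbour 1 bp away. Rab11fip4 had 43 with 17 and 15, and 27 such neighbours. Prdm16 was the fifth.

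Genes were also read by list, as counts and as the median over genes of each gene's median move, which was -7.85 points over all 4691 genes. For the counts of every list, the shares over all these genes were 1.15% moved lower and 15.1% kept above the reference. List genes named below that were not called were chosen after their values were seen. Of 40 pluripotency genes 6 had 3 or more members, 1 (Pou5f1) moved lower and the median was -16.2 points. Over all members of the gene, Sall4, a zinc finger partner of Pou5f1, went from 81.1 points in GSC to 57.8 and 56.6 in the gPSC lines (7 members, 3 moved lower). Tet1, an enzyme that oxidises methylcytosine, went from 86.0 to 61.8 and 62.8 (6 members, 2 moved lower). Esrrb, a receptor of the naive state, went from 59.7 to 42.8 and 35.6 over 7. All 3 means were lower in both gPSC lines than in GSC, a direction that 65.4% of all member positions shared.

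Of 40 spermatogonial stem cell genes 12 had 3 or more members, with 1 moved lower (Lhx1), 1 kept above the reference (Gfra1) and a median of -10.2 points (-7.15 over positions). Gfra1, the receptor for the niche factor GDNF, held 10 of 19 members at 52.9 points in GSC, 53.5 in gPSC 1 and 51.5 in gPSC 2. Another 4 of its members were kept below the reference. Zbtb16, the self-renewal factor PLZF, had 22 members with means of 67.1, 56.8 and 55.1 points. Kit, a receptor of differentiating spermatogonia, went from 76.8 to 54.8 and 53.5 over 6. Of 50 germline genes 7 had 3 or more members, none was called and the median was -4.47 points. Of their 52 member positions 4 moved lower and 4 moved higher, beside 7.69% and 0.608% of all members. The share that moved lower was thus close to the general one. Of the 4 that moved higher, 3 are those of Asz1 and Dazl above. The fourth is in the promoter of the tubulin gene Tuba3b, at 37.9, 83.5 and 84.3 points. The 4 that moved lower were 2 in the body of Tex14, which acts at germ cell bridges, 1 in the body of Tdrd9, a piRNA pathway helicase, and 1 in the promoter of Tex19.1. At the Tex14 positions GSC stood at 83.9 and 91.5 points, gPSC 1 at 45.6 and 59.0 and gPSC 2 at 34.9 and 28.5. The Tdrd9 position was at 88.5, 33.2 and 32.2 points and that of Tex19.1 at 96.2, 64.6 and 54.5. Hormad1, a meiotic axis protein, had 3 members with means of 40.5 points in GSC, 56.0 in gPSC 1 and 57.3 in gPSC 2. The gPSC lines differed at single positions, and none of the 3 moved in both. The position 95559371 stood at 36.4 points in GSC, 86.4 in gPSC 1 and 59.1 in gPSC 2. The position 95559571 stood at 31.8, 31.6 and 65.2.

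Of 33 genes of the DNA methylation machinery 9 had 3 or more members, 1 (Dnmt3a) was kept above the reference and the median was -15.0 points. Over the 102 positions of the list the median was -5.91 points, beside -7.61 over all positions in genes. The 3 kept positions of Dnmt3a stood at 61.7, 62.9 and 59.7 points. Kdm2b, a CpG island binding protein, went from 79.9 to 38.9 and 29.9 over 3 members, of which 2 moved lower. Dnmt1 had 34 members, 23 of them with an opposite neighbour, and 1 moved lower. Imprinted genes had 9 with 3 or more members, none called, at a median of -9.80 points. Among them Kcnq1 had 23 members with means of 32.8, 27.9 and 29.7 points, and Peg10 had 7 with 73.6, 63.6 and 64.7.

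Among the developmental lists, neural lineage regulators (22 genes with 3 or more members) had 1 gene kept above the reference, Neurog1, beside 15.1% of all genes. Their median was -1.01 points, and 87 of their 162 positions had an opposite neighbour 1 bp away. Irx5 had 10 positions kept above and 10 below the reference, all 20 with such a neighbour. Neurog1, a proneural factor, stood at 69.7 points in GSC, 62.3 in gPSC 1 and 65.7 in gPSC 2 at the 4 CpGs marked above. There iPSC 2 had a mean of 82.4 and iPSC 1 was not listed. Neurog1 was not called with q at most 0.0001 in all 3 libraries, nor with 5 positions per gene. Hox genes (6) had 1 kept, Hoxd3, and a median of -1.06 points over genes but 1.51 over positions, with 25 of 38 positions beside an opposite one. Mesoderm and endoderm regulators (21) had 2 moved lower, Lhx1 and Foxj1, and 1 kept above the reference, Tbx4, beside 1.15% and 15.1% of all genes. Their median was -10.3 points.

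Wnt pathway genes (25) had 1 moved lower, Apc2, and 5 kept above the reference, among them Lef1, a nuclear effector of the pathway, at 47.9, 44.2 and 43.8 points over 10 positions. Over all genes the shares called in these directions were 1.15% and 15.1%. The list median was -7.37 points. FGF and GDNF signalling genes (11) had 3 kept above the reference, Fgf12, Gfra1 and Fgfr2, and a median of -9.68 points (-5.995 over positions). Clustered protocadherins had 14 genes kept above and 2 below the reference out of 27, beside 15.1% and 1.17% of all genes. These genes share exons and overlap, so they rest on 27 positions in all. In the alpha cluster 8 kept positions, shared by Pcdha1, Pcdha10, Pcdha11 and Pcdha12, had means of 60.6, 60.3 and 59.2 points. The 5 kept lower positions of Pcdhga9 and Pcdhgb5 are the same ones and all have an opposite neighbour.

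Genes of other cells that a germline culture could hold were read in the same way. Of 24 fibroblast (feeder) genes 4 had 3 or more members and 3 were kept above the reference, Col5a1, Fbn1 and Col6a3, beside 15.1% of all genes, with a list median of -3.51 points. None of the 3 was called with q at most 0.0001 in all 3 libraries. Of 25 testis somatic genes 7 had 3 or more members and none was called, with a median of -11.7 points. Methylation differences do not give expression, so the labelled cell types were not checked by their transcripts. Of 28 genes of 2-cell-like cells 2 had a member and none had 3.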

How the data were processed

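Reduced representation bisulfite libraries of 6 mouse lines were made, and 5 had tables of called positions. Tools listed in the submitters' processing notes are methylKit, Bismark, GATK and Bowtie2, with no version or role given. The genome builds listed there are GRCm38 and mm10. Per the file headers, the deposited tables give chromosome, position, a p-value and a q-value, and the methylation difference in percentage points. They hold no coverage or methylation level, so the depth per sample is not known and a coverage minimum could not be tried.

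Tables were joined by position with python 3.11.15, pandas 2.3.3 and numpy 2.4.6 (plots: matplotlib 3.10.9), and the calling script was tested on simulated data. Genes came from the RefSeq table (GRCm38.p6, 34631 protein-coding and lncRNA genes), as the gene body plus 2000 bp upstream where the strand was known (27025 genes). The deposited gene identifiers had been planned for this, but 260 of 78200 (0.332%) matched the table. Of the members, 35452 (59.5%) lay in a gene, 3655 of them in 2 or more. The deposited feature column was filled for 84.5% of members in plus-strand genes and 17.1% in minus-strand genes, and was not used to call genes.

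Named genes were, for each kind, the 8 called genes with the most positions of the kind, leaving out predicted and small RNA genes, the called members of 14 gene lists (at most 4 per list and kind), and the 5 genes with most members. The members and lists were chosen with earlier results of these data known. No test was run across samples, because the positions were chosen on the values compared and GSC has 1 library.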

Additional observations from a re-analysis of the deposited data

How the results depend on the processing

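The median move stayed negative under every alternative that gave one. Values of the 52 named calls are means over positions chosen by direction or by side of the reference, so their signs were no check. In size, 98 of these values shifted by at least the SD of the 2 gPSC lines and 195 by less. A call with no position of its kind left under an alternative gave no value and is not in these counts. This held for all 5 genes that moved higher with q at most 0.0001. Directions of the other called genes were not followed. The median move (-7.37 points) was -7.41 without gPSC replicate 1 and -5.74 without gPSC replicate 2. With q at most 0.0001 in all 3 libraries there were 33801 members, of which 2506 moved lower, 125 moved higher, 13220 were kept above and 1044 below the reference, with 19, 0 and 440 genes moved lower, moved higher and kept above. Taking 15 points as a move gave 10640 positions and 257 genes lower and 919 positions and 9 genes higher. Taking 40 points gave 1295 and 115 positions, and 8 genes lower. Keeping within 5 points gave 9161 positions above and 1132 below, in 75 and 26 genes, and within 15 points 1641 genes above. Leaving out positions with an opposite one 1 bp away left 878 positions and 30 genes kept below and 3 genes moved higher, and within 50 bp 617, 26 and 1. Joining positions 1 bp apart gave 119 genes counted as kept below, beside 55 without joining. In 859 of the 1175 opposite pairs, the values of each of the 3 libraries summed to within 5 points of 0. Once joined, such a pair can lie near the reference, so the 119 cannot be read as genes at a level below it. The part of these pairs in that count was not tested. Asking for 5 positions per gene gave 13 genes lower, 2 higher and 272 kept above. Asking for more than 80% of a gene's members gave 23 lower, 173 kept above and 26 below. Of the alternatives chosen after seeing the data, requiring the deposited feature column gave 29 lower, 1 higher and 370 kept above, and positions in 1 gene only gave 3 higher and 27 below.

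With 1 gPSC line left out in turn, members numbered 86118 to 100781. Positions moved lower numbered 12715 to 13111, moved higher 937 to 1621, kept above 41729 to 49107 and kept below 3957 to 7500. Genes numbered 272 to 296, 13 to 53, 2138 to 2308 and 97 to 227, of which 46 and 44 of the 54 genes that moved lower were shared. Of the 52 named calls, 31 were made with q at most 0.0001, 23 with kept under 5 points, 18 with more than 80% of members, 28 with the feature column, 41 and 37 without opposite neighbours at 1 and 50 bp, 48 without gPSC replicate 1 and 46 without gPSC replicate 2. Without replicate 1, Banp, Apc2, Akna and Ptprf were not called. Without replicate 2, Bicral, Apc2, Hoxd3, Ptprf, Pcdhga9 and Pcdhgb5 were not.

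No paired analysis was possible because the results come from no test, and GSC has a single library that carries no number shared with a second one. Depth is unknown, so it cannot be said which positions rest on few reads.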
